A study of Mus musculus with 6 samples.

Results

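The genes described here encode the mitochondrial ribosomal proteins, taken as every mouse gene whose symbol starts with Mrpl or Mrps followed by a number. The rule found 78 genes among the 19977 in the table, 49 with Mrpl and 29 with Mrps symbols. All 78 passed the filter on low values, so none is missing from the counts below. They were measured by RNA sequencing in CD4+ T cells, the helper class of T lymphocytes, from wild type C57BL/6 mice. Spleen and lymph nodes were the source, cells were sorted by flow cytometry, and culture lasted 6 h with antibodies to CD3 and CD28 (the T-cell receptor complex and its co-receptor). The young group had 3 libraries from mice of 6 to 8 weeks and the old group 3 libraries from mice of 11 months. Both groups were stimulated, so the data hold no resting cells. Nothing in the labels says that each library came from a separate mouse, and p-values here measure the spread between libraries, which may be technical.

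Mitochondria carry ribosomes of their own, which translate the few proteins encoded by mitochondrial DNA, all of them parts of the respiratory chain and the ATP synthase. The ribosomal RNAs come from mitochondrial DNA, whereas every protein of the large (Mrpl) and small (Mrps) subunit is encoded in the nucleus, made in the cytosol and imported. Some members descend from bacterial ribosomal proteins and others exist only in mitochondria. T cells increase mitochondrial mass and respiratory capacity as they leave rest and grow, and mitochondrial translation is part of that growth.

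Library totals ran from 16932551 counts in young replicate 1 to 18708205 in old replicate 3. Young replicate 1 stood apart from the other libraries of its group: its log2 expression values correlated with those of young replicates 2 and 3 across genes at 0.924 and 0.911, while those 2 libraries correlated at 0.977. The comparisons of old with young are therefore given with and without it. The CD4 T-cell markers were high in every library, with 7 of 7 past the filter and a summed level of 2788 to 3269 CPM (counts scaled to a common library total) in young and 3037 to 3731 in old libraries. Markers of other cell types summed to far less. Neutrophil markers (4 of 6 past the filter) reached 27.0 to 58.6 CPM in young and 3.78 to 23.6 in old libraries, and CD8 T-cell markers (1 of 2) reached 16.6 to 27.5 and 11.3 to 14.6 CPM. B-cell markers (5 of 6) reached 13.3 to 38.1 CPM in young and 15.6 to 25.6 in old, and myeloid markers (2 of 6) 14.6 to 22.5 and 12.4 to 17.2. All 5 B-cell markers past the filter were higher in young replicate 1 than in both other young libraries (45.7% of genes tested). Their sums were 29.9, 10.7 and 11.4 CPM in young replicates 1, 2 and 3. Natural killer markers (0 of 4) stayed at 1.37 CPM or less and erythroid markers (1 of 5) at 5.37 or less, and none of the markers on these lists was at 0 counts in every library. The summed neutrophil and CD8 levels were lower in each old library than in any young one. The CD8 sum was mostly Cd8b1. Cd8a, below the filter, had 2.37, 2.04 and 1.44 CPM in young and 2.07, 2.11 and 2.08 CPM in old libraries. The part of these other cell types in the results was not tested.

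The member genes lie on 17 chromosomes, with 11 on chromosome 11, 8 on chromosome 17, 7 on chromosome 6 and 6 on chromosome 7. Promoter windows from 250 bases before to 50 after the start of a gene were held by the RefSeq promoter table of GRCm38.p6 for 69 of the 78 members, in 75 windows. Short motifs were searched on both strands. The ETS-type motif CCGGAAG was in 34.7% of member windows, against 8.9% of all 32851 windows in the table and 19.4% of those of the genes tested here. The NRF1-type motif GCGCANGCG, named after a nuclear factor known for its role in mitochondrial genes, was in 21.3% of member windows, 6.2% of all and 14.1% of tested genes' windows. The YY1-type motif AANATGGCG was in 14.7%, 2.4% and 5.5%. The E-box CACGTG, which Myc binds, was in 9.3%, 7.2% and 10.3%. Some genes have several windows, and each window was counted. By gene, 5 of the 69 members held an E-box, Mrpl2 in overlapping windows. A match describes letters in the window and shows no binding.

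Promoters often had a neighbour. A coding gene on the opposite strand started within 1000 bases of the start of 24 of the 69 members (34.8%), against 1238 of 8494 tested genes (14.6%). Mrpl46 and Mrps11, which encode a large- and a small-subunit protein, start 42 bases apart on chromosome 7. Mrpl43 starts 116 bases from Twnk, the helicase of mitochondrial DNA, and Mrps12 starts 147 bases from Sars2, the mitochondrial seryl-tRNA synthetase. The windows of 3 members are shown because each holds 1 of the motif types that were more frequent in member windows, and because Mrps12 and Mrps11 belong to such pairs while Mrpl12 recurs in the comparison of ages. Sequences are from RefSeq, GRCm38.p6, written along the strand of the gene, with the motif in capitals: the ETS-type motif in Mrps12 (chr7:28741772-28742071, minus strand), the reverse complement of a YY1-type motif in Mrps11 (chr7:78782881-78783180, plus strand) and the reverse complement of an NRF1-type motif in Mrpl12 (chr11:120484387-120484686, plus strand).
Mrps12: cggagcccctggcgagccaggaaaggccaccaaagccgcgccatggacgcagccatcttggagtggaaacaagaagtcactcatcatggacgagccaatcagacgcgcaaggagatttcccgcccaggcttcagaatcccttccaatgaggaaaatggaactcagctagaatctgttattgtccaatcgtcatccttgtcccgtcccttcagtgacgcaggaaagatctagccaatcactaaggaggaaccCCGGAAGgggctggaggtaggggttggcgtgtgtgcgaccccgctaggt
Mrps11: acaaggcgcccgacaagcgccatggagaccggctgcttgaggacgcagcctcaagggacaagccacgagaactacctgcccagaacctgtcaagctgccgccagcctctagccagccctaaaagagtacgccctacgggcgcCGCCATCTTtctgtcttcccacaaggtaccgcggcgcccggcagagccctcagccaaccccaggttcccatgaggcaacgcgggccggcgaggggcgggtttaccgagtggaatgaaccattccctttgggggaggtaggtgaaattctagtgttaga
Mrpl12: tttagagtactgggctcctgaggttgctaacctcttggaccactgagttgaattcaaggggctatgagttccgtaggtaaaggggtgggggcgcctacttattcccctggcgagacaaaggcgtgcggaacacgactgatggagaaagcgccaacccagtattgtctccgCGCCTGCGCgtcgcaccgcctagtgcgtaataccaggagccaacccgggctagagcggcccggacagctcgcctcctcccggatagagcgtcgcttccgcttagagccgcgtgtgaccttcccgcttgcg

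Every mitochondrial ribosomal protein gene was expressed, at levels that spanned 23.04-fold. The mean over 6 libraries, in FPKM (sequenced fragments scaled to transcript length and to the library total), ran from 8.52 to 196 with a median of 42.8. The highest 5 were Mrpl52 (196 FPKM), a mitochondria-specific protein, Mrpl24 (129), Mrps6 (117), Mrpl12 (109) and Mrpl23 (108), the last 4 with bacterial counterparts. The lowest 3 were Mrpl17 (8.52), Mrpl57 (11.4) and Mrpl19 (12.6). Group means ordered the genes alike in young and old libraries, with a Spearman correlation of 0.971 across genes, which are not independent replicates.

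**Figure D1:**
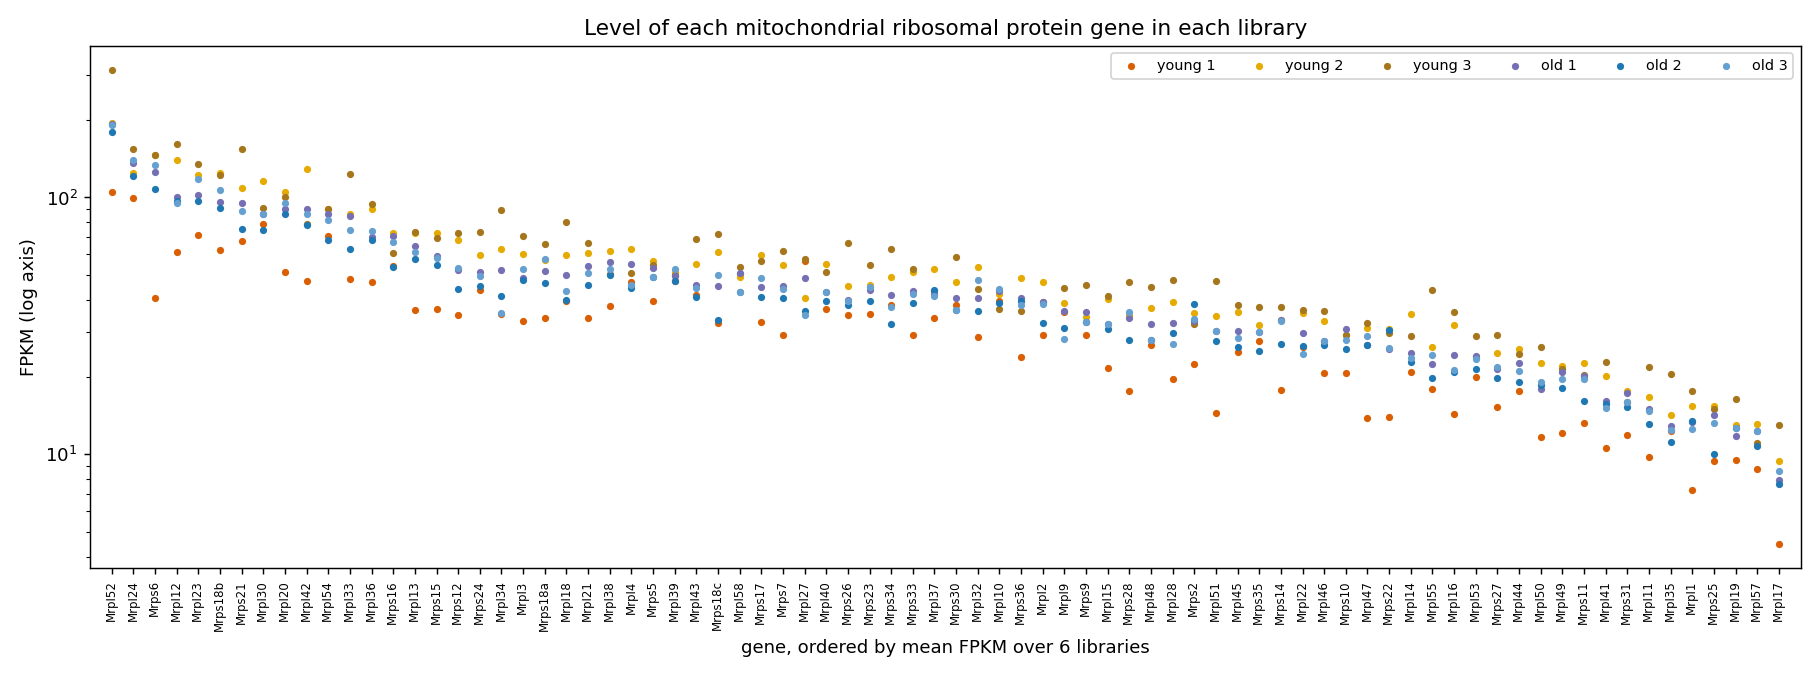
FPKM on a log axis (y) of the 78 genes, ordered by mean level (x), with 1 point per library coloured by library. Levels run from a mean of 8.52 FPKM in Mrpl17 to 196 in Mrpl52, and the points of young replicate 1 lie at the lower edge for most genes.

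The summed level of the 78 genes differed more among the young libraries than between the groups. It was 2737 CPM in young replicate 1, 4398 in young replicate 2 and 4986 in young replicate 3, and 3793, 3407 and 3814 CPM in old replicates 1, 2 and 3. Young replicate 1 was the lowest of all 6 libraries, the other 2 young libraries were the highest, and the 3 old libraries lay between. The means were 4040 ± 1166 CPM in young and 3671 ± 229 in old libraries (SD, n = 3 each), so the difference of the means was smaller than the young SD. In bulk RNA, less RNA per cell and fewer cells that express the genes cannot be told apart.

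The single genes followed the same order. Young replicate 1 was below both other young libraries for 76 of the 78 members, where this held for 41.2% of the 10509 genes tested, and above both for 0 (45.7%). It was the lowest of all 6 libraries for 64 members (32.8% of genes tested). The 2 exceptions to the 76 were Mrpl27, described below, and Mrpl58, a protein related to bacterial release factors that is built into the large subunit. All 3 old libraries lay below young replicates 2 and 3 for 58 members (23.2% of genes tested) and above them for none (24.3%). They lay between young replicate 1 and the other young libraries for 49 (13%). For 0 members were all old libraries below all young ones, against 6.54% of genes tested, or above them, against 9.9%.

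**Figure D2:**
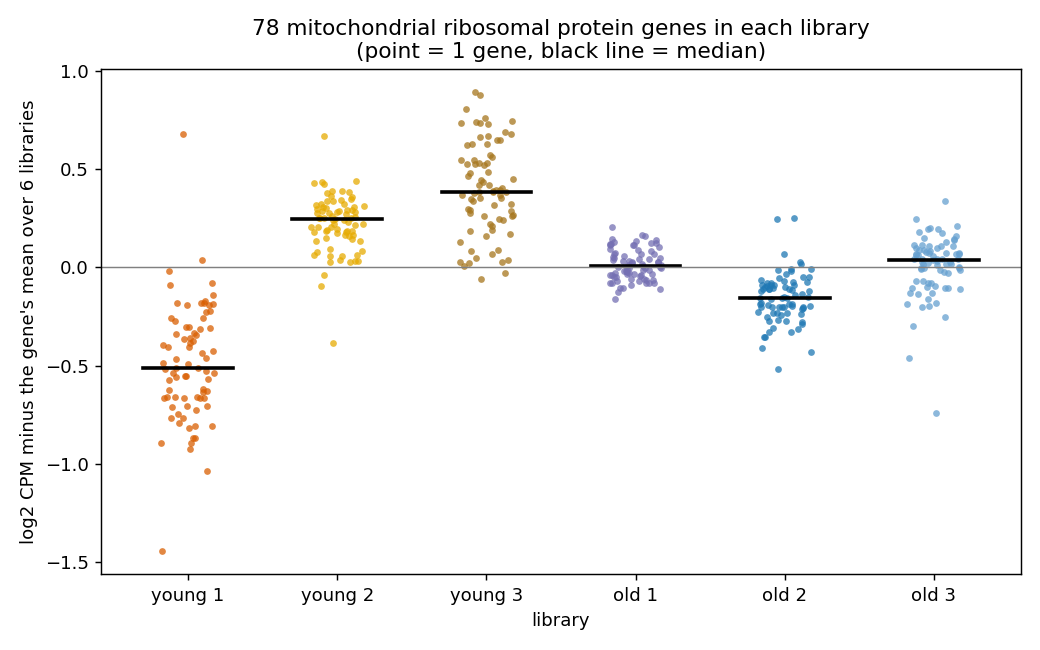
Log2 CPM of each of the 78 genes minus its mean over the 6 libraries (y), by library (x), with 1 point per gene and a black line at the median. The medians are -0.51, 0.24 and 0.38 in young replicates 1, 2 and 3 and 0.01, -0.15 and 0.04 in old replicates 1, 2 and 3.

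The gap between young replicate 1 and the mean of the other young libraries had a median of -0.84 on the log2 scale, with quartiles of -1.07 and -0.56, where the median over all genes tested was 0.05. It was widest for Mrps6, the counterpart of bacterial S6, with 30.2, 111 and 115 CPM in young and 94.7, 81.0 and 103.9 CPM in old replicates 1 to 3. Young replicate 1 was the lowest library there by a wide margin, with a gap of -1.91, and the old libraries lay between it and the other young ones. Mrpl51 (-1.56), Mrpl17 (-1.39), Mrpl12 (-1.37) and Mrpl52 (-1.35) came next. The genes with the narrowest gaps were Mrpl10 (-0.07), which anchors the stalk of the large subunit, Mrpl58 (-0.09) and Mrpl39 (-0.12). Mrpl10 had 63.1, 68.3 and 64.1 CPM in young and 70.8, 62.6 and 72.1 CPM in old libraries, with overlapping groups. Among the 3 old libraries the median SD of a member's log2 CPM was 0.12, among young replicates 2 and 3 it was 0.16, and among all 3 young libraries it was 0.50.

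With all 6 libraries, no mitochondrial ribosomal protein gene passed the test between old and young. At a Benjamini-Hochberg adjusted p under 0.05 in the edgeR quasi-likelihood fit, 0 of 78 were called, against 0.875% of genes tested (0.133% lower and 0.742% higher in old). None had an unadjusted p under 0.05, where 10.6% of genes tested had one (3.96% lower in old). DESeq2 called 0 members, against 4.77% of genes tested (1.21% lower in old). The log2 differences of old minus young ran from -0.72 to 0.21 with a median of -0.14 (all genes tested, -0.03), and 62 members were below 0 (79.5%, against 55.1% of genes tested). The median turned to 0.03 when young replicate 3 was left out and was -0.36 without young replicate 1.

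The 5 highest differences were in Mrps2 (0.21), Mrps6 (0.12), Mrps22 (0.12), Mrps36 (0.10) and Mrpl57 (0.09). Mrps2, a small-subunit protein with a bacterial counterpart, had 44.9, 72.2 and 69.0 CPM in young and 66.5, 78.5 and 70.1 CPM in old libraries. Young replicate 1 was the lowest and the other libraries overlapped. Without young replicate 1 the difference was 0.02 ± 0.12 (SE). Mrps22, a small-subunit protein found only in mitochondria, had 16.4, 37.1 and 37.3 CPM in young and 30.6, 36.1 and 32.0 in old libraries, and its difference went from 0.12 to -0.18 without young replicate 1. Mrps36 bears a ribosomal name but is known as a part of the 2-oxoglutarate dehydrogenase complex. It had 16.3, 33.8 and 26.1 CPM in young and 27.8, 27.0 and 27.0 CPM in old libraries, and the old values lay within the young range.

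The 5 lowest differences were in Mrpl27 (-0.72), Mrpl34 (-0.56), Mrpl18 (-0.46), Mrps34 (-0.45) and Mrpl55 (-0.42). Mrpl27, the counterpart of bacterial L27, had the smallest adjusted p of the members (0.542 after Benjamini-Hochberg adjustment in edgeR). It had 86.9, 41.7 and 90.4 CPM in young and 59.1, 41.0 and 32.6 CPM in old libraries. Young replicate 2 was within the range of the old libraries, and young replicates 1 and 3 were above it. The gene has 2 transcripts in the table. The curated one was level, between 27.0 and 34.3 FPKM in all libraries. The predicted one carried the differences, with 27.7, 7.24 and 25.9 FPKM in young and 14.3, 9.03 and 4.08 FPKM in old libraries. Mrpl27 also overlaps Eme1, and reads of overlapping genes may be split between them; on log2(FPKM + 1) the difference of Mrpl27 was -0.36.

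Without young replicate 1, edgeR called 5 members, all lower in old libraries, which is 6.41% of the 78 against 2.98% of genes tested (8.84% in either direction and 5.86% higher). They were Mrpl12, Mrpl16, Mrpl18, Mrpl34 and Mrpl41, all proteins of the large subunit. The log2 differences had a median of -0.36, against 0.01 over all genes tested, and ran from -0.86 to 0.05. Of the 78 members, 76 were below 0 (97.4%, against 49% of genes tested), the others being Mrpl10 (0.05) and Mrps2 (0.02). The library left out was below both other young libraries for 76 of the 78 members, against 41.2% of genes tested. Leaving it out raised the young mean of each of those members, which lowers the difference of old minus young. An unadjusted p under 0.05 was found for 42 members (53.8%), all lower in old. The shares of genes tested were 13.3% lower in old and 28.1% in either direction. DESeq2 called 26, all lower (33.3%, against 7.62% of genes tested lower). The count of 5 became 18 when young replicate 2 was left out as well, 0 without young replicate 3, 4 without old replicate 1, 0 without old replicate 2 and 1 without old replicate 3. Over these the median stayed between -0.42 and -0.29, and its sign was the same under each scaling tried.

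**Figure D3:**
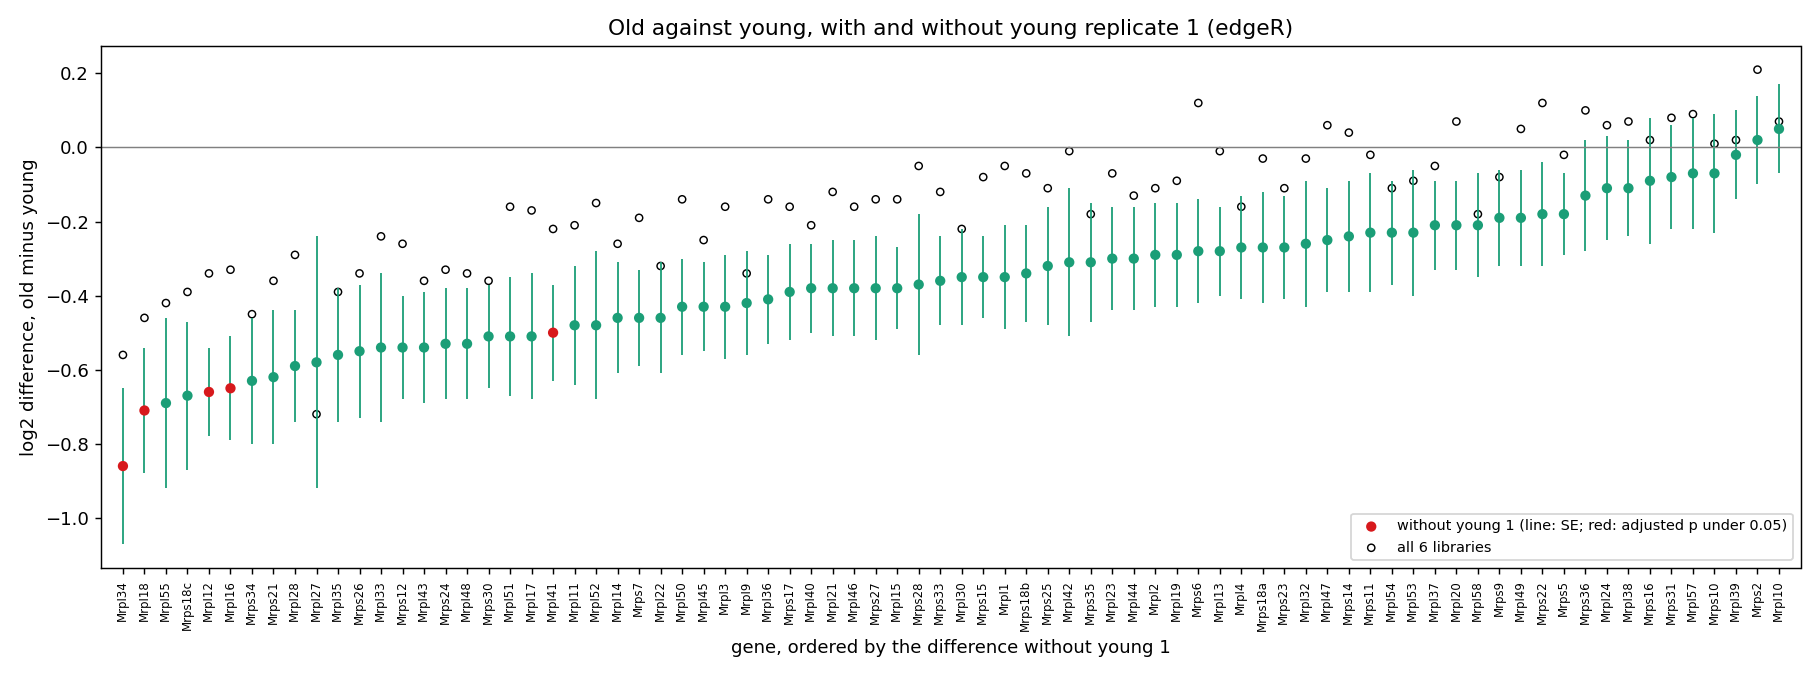
Log2 difference of old minus young (y) for each of the 78 genes (x), with all 6 libraries (open points) and without young replicate 1 (filled points, lines showing the SE, red where the adjusted p is under 0.05). Most open points sit above the filled ones; the medians are -0.14 and -0.36.

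Mrpl12 is the stalk protein of the large subunit, through which translation factors are brought to the ribosome, and is also known to bind the mitochondrial RNA polymerase. It had 55.7, 130.5 and 157 CPM in young and 92.2, 89.4 and 90.2 CPM in old libraries. The old libraries were nearly alike and lay between young replicate 1 and the other 2. Without young replicate 1 the difference was -0.66 ± 0.12 (SE), 1.59-fold lower in old, with a Benjamini-Hochberg adjusted p of 0.0187 from the quasi-likelihood fit of edgeR. With all libraries it was -0.34 ± 0.34.

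Mrpl16, a counterpart of bacterial L16, had 15.7, 36.0 and 41.8 CPM in young and 26.9, 23.2 and 24.4 CPM in old libraries. Its difference without young replicate 1 was -0.65 ± 0.14 (SE), with an edgeR adjusted p of 0.0321, and -0.33 with all libraries. Mrpl18, the counterpart of bacterial L18 in the central protuberance, had 35.4, 55.3 and 77.7 CPM in young and 45.3, 36.4 and 40.5 CPM in old libraries. In both genes young replicate 1 was the lowest library and the old libraries were all below the other 2 young ones. The difference of Mrpl18 without young replicate 1 was -0.71 ± 0.17 (edgeR adjusted p = 0.0430), and -0.46 with all libraries.

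Mrpl34, the counterpart of bacterial L34, had the lowest difference of the members without young replicate 1, 1.82-fold lower in old, whereas with all libraries Mrpl27 had the lowest. It had 21.5, 39.4 and 57.9 CPM in young and 32.2, 25.5 and 22.6 CPM in old libraries. The young libraries spread more than the old ones, and old replicate 3 was close to young replicate 1. The difference without young replicate 1 was -0.86 ± 0.21 (SE; edgeR adjusted p = 0.0442), and -0.56 with all libraries. Mrpl41, a mitochondria-specific protein also known as a binding partner of Bcl2, had 25.2, 49.3 and 58.2 CPM in young and 38.7, 37.7 and 37.7 CPM in old libraries. The old values were almost equal, and the difference was -0.50 ± 0.13 (edgeR adjusted p = 0.0493) without young replicate 1 and -0.22 with it. Mrpl28, just outside the threshold, had an edgeR adjusted p of 0.0514 and a difference of -0.59.

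**Figure D4:**
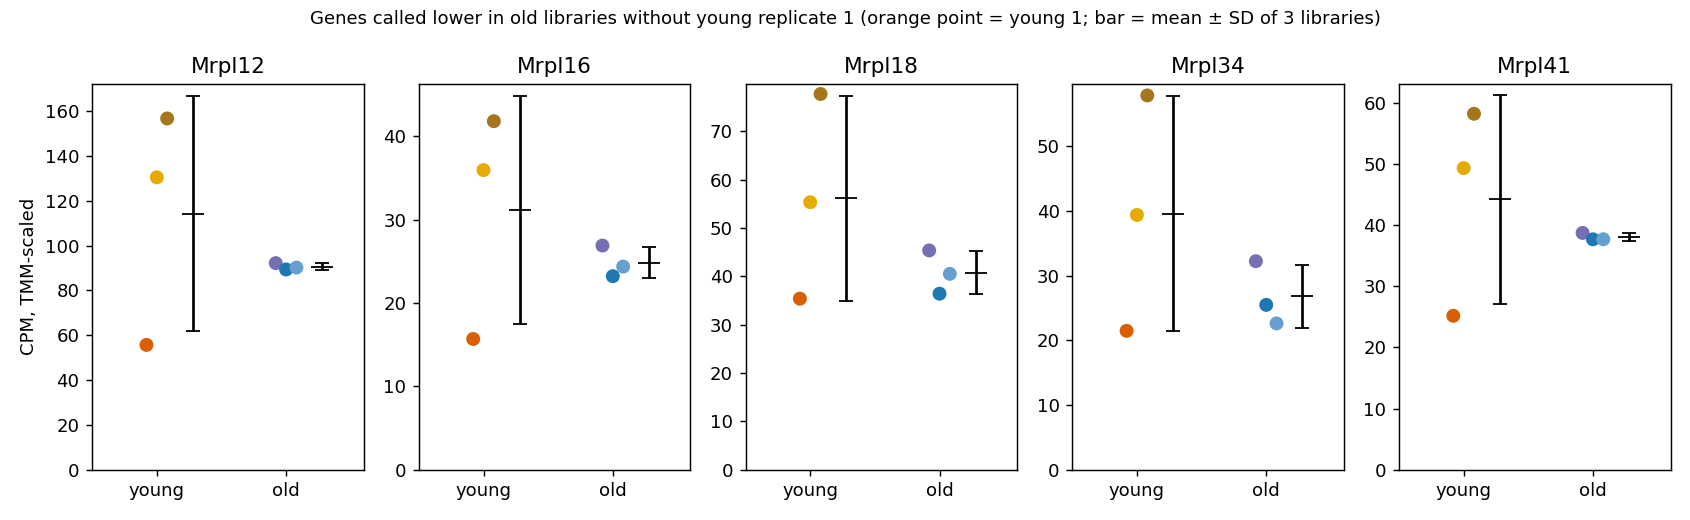
CPM (y) in each young and old library (x) of the 5 genes called lower in old libraries without young replicate 1, with bars at the mean and SD of 3 libraries and young replicate 1 in orange. In each gene the orange point is the lowest of the 6 and the old libraries lie below the other 2 young ones; for Mrpl12 the young values are 55.7, 130.5 and 157 CPM and the old ones 89.4 to 92.2.

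Both subunits had median differences below 0. The 51 proteins placed in the large subunit, which include Mrps18a and Mrps30 in spite of their names, had a median difference of -0.16 with all libraries and -0.38 without young replicate 1. The 26 of the small subunit had -0.09 and -0.33. Young replicate 1 was below the other young libraries for 49 of the 51 and 26 of the 26, with median gaps of -0.84 and -0.81. All 5 genes called by edgeR were among the 51. Without young replicate 1, DESeq2 called 19 of the 51 and 7 of the 26, all lower (7.62% of genes tested). An unadjusted edgeR p under 0.05 was found for 30 and 12, all lower (13.3% of genes tested lower, 28.1% in either direction). A difference between the subunits was not tested. By descent, the 48 members with a bacterial counterpart had a median of -0.37 without young replicate 1 and the 29 specific to mitochondria -0.32, and both had -0.14 with all libraries. Their gaps of young replicate 1 were -0.95 and -0.63.

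Mrps18a, Mrps18b and Mrps18c are 3 related proteins, of which the first sits in the large subunit and the others in small subunits. Mrps18a had 28.0, 48.4 and 57.9 CPM in young and 43.3, 38.8 and 49.6 CPM in old libraries, with overlapping groups. Its difference was -0.27 ± 0.15 (SE) without young replicate 1 and -0.03 with all libraries. Mrps18b was more abundant, with 61.7, 128 and 128 CPM in young and 97.6, 92.6 and 112 CPM in old libraries, and differences of -0.34 ± 0.13 and -0.07. Mrps18c had 15.1, 29.3 and 35.6 CPM in young and 21.2, 15.7 and 24.2 CPM in old libraries, and differences of -0.67 ± 0.20 and -0.39. In edgeR none of the 3 was called in either fit, the smallest adjusted p being 0.0772 for Mrps18c, which DESeq2 called without young replicate 1 (adjusted p = 0.0288).

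Mrps30, in the large subunit, had 59.1, 74.3 and 96.7 CPM in young and 63.8, 57.1 and 58.9 CPM in old libraries, a difference of -0.51 ± 0.14 (SE) without young replicate 1 and -0.36 with all libraries. Without that library the adjusted p was 0.0661 in edgeR and 0.0162 in DESeq2. Mrpl57, a small mitochondria-specific protein, had 20.1, 31.1 and 27.2 CPM in young and 28.9, 24.9 and 29.6 in old libraries. Its old libraries overlapped the young ones, and the difference was 0.09 with all libraries and -0.07 without young replicate 1. Mrpl58 had 39.2, 38.9 and 44.2 CPM in young and 39.4, 33.5 and 34.8 CPM in old libraries. The groups overlapped, and the difference was -0.18 with all libraries and -0.21 ± 0.14 without young replicate 1. Mrps34 and Mrpl55, among the lowest differences above, stood at -0.63 and -0.69 without young replicate 1. Neither was called by edgeR, and DESeq2 called both (adjusted p = 0.0151 and 0.0482).

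The effective length of the transcripts moved with both patterns across all genes. The length, in bases, was derived per gene from the ratio of counts to FPKM. The members were short, with a median of 1030 against 2740 over the genes tested. The genes tested were split by length into 4 classes of equal size. From the shortest to the longest class, the median gap of young replicate 1 went from -0.41 through -0.04 and 0.12 to 0.37. The median difference of old minus young without that library went from -0.20 through -0.03 and 0.04 to 0.15, and with all libraries from -0.11 to 0.01. The share called lower fell from 5.44% through 3.20% and 1.98% to 1.29%. Of the members, 65 were in the shortest class, with medians of -0.84 for the gap and -0.35 for the difference. EdgeR called 4 of these 65 lower without young replicate 1, where the share over all genes of that class was 5.44%. The 7, 3 and 3 members in the longer classes had gaps of -0.87, -0.86 and -0.75 and differences of -0.38, -0.48 and -0.32, in classes that hold fewer than 20 members.

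Genes that serve mitochondrial translation without being members were described from lists. With all libraries edgeR called 0 of them (0.875% of genes tested) and DESeq2 2 (4.77%), and 4 had an unadjusted edgeR p under 0.05 (10.6%). Without young replicate 1, edgeR called 2.98% of genes tested lower and DESeq2 7.62%. An unadjusted edgeR p under 0.05 was found for 28.1% in either direction and for 13.3% lower in old. The counts below without that library are to be read beside these shares. Of 5 ribosomal subunits with other names (Dap3, Ptcd3, Chchd1, Aurkaip1 and Gadd45gip1), all had differences below 0 without young replicate 1. Their median was -0.32 (-0.12 with all libraries). EdgeR called 0 of them and DESeq2 2, both lower, and 2 had an unadjusted edgeR p under 0.05. Dap3, a GTP-binding protein of the small subunit, had -0.26 ± 0.13 (SE; -0.15 with all libraries), and Gadd45gip1, in the large subunit, had -0.50 ± 0.14 (-0.23). The 28 assembly and rRNA modification factors had a median of -0.10 without young replicate 1 (-0.05 with all libraries), with 22 below 0. EdgeR called 2 of these and DESeq2 3, all lower. The 13 translation factors had a median of -0.17 (-0.03 with all libraries), and the 19 aminoacyl-tRNA synthetases -0.16 (-0.09). Without young replicate 1, edgeR called 0 and DESeq2 2 in each of these lists, all lower, and 3 and 6 genes had an unadjusted edgeR p under 0.05. Of the 19 synthetases, 4 were above 0 without young replicate 1 and 8 with all libraries. Gars, at 263 to 576 CPM, had the highest difference, 0.30 ± 0.12 (SE) and 0.50 ± 0.23, and was among the 6. For the 12 genes of mitochondrial transcription and genome upkeep, the median changed sign with that library, being 0.02 with it and -0.11 without it. Of the 12, 5 were below 0 with all libraries and 9 without young replicate 1. EdgeR and DESeq2 called 0 of the 12 without young replicate 1, and 2 had an unadjusted edgeR p under 0.05. Tfam, which packs mitochondrial DNA, had 0.02 ± 0.19 (SE) with all libraries and -0.09 ± 0.16 without young replicate 1. Polrmt, the mitochondrial RNA polymerase, had 0.02 ± 0.17 and -0.12 ± 0.12. Genes encoded by mitochondrial DNA were not analysed here.

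The 2 assembly factors called by edgeR did not share the order of libraries seen in the members. Grsf1, an RNA-binding protein of mitochondrial RNA granules, had 72.7, 89.0 and 86.8 CPM in young and 59.4, 62.4 and 60.2 CPM in old libraries. Rbfa, which matures the RNA of the small subunit, had 53.8, 50.4 and 74.6 CPM in young and 41.1, 34.3 and 33.7 CPM in old libraries. In both, all old libraries were below all young ones, young replicate 1 included. The differences without young replicate 1 were -0.54 ± 0.11 (SE; edgeR adjusted p = 0.0266) for Grsf1 and -0.78 ± 0.18 (0.0398) for Rbfa. With all libraries they were -0.45 (edgeR adjusted p = 0.299) and -0.71 (0.212).

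A like order of libraries was seen in other nuclear genes of respiration and protein synthesis. All old libraries lay between young replicate 1 and the other young libraries for 56 of 78 subunits of oxidative phosphorylation. The same held for 42 of 81 cytosolic ribosomal proteins and for 13% of genes tested. For the 78 subunits the median difference without young replicate 1 was -0.47 (-0.24 with all libraries), with 78 below 0. EdgeR called 5 of them lower, against 2.98% of genes tested, and DESeq2 called 40 lower, against 7.62%. An unadjusted edgeR p under 0.05 was found for 59, all lower, against 13.3% of genes tested lower (28.1% in either direction). For the 81 ribosomal proteins the median difference was -0.30 (-0.14 with all libraries), with 80 below 0. EdgeR called 0 of these, DESeq2 called 16 lower and 28 had an unadjusted edgeR p under 0.05, against the same shares of genes tested. With all libraries, edgeR and DESeq2 called 0 in both lists, and 2 subunits and 1 ribosomal protein had an unadjusted edgeR p under 0.05 (10.6% of genes tested). For 75 subunits and 77 ribosomal proteins young replicate 1 was below the other young libraries (41.2% of genes tested), with median gaps of -0.83 and -0.66. A difference between these lists and the members was not tested. Both lists are also of short transcripts, with median effective lengths of 664 and 660.

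**Figure D5:**
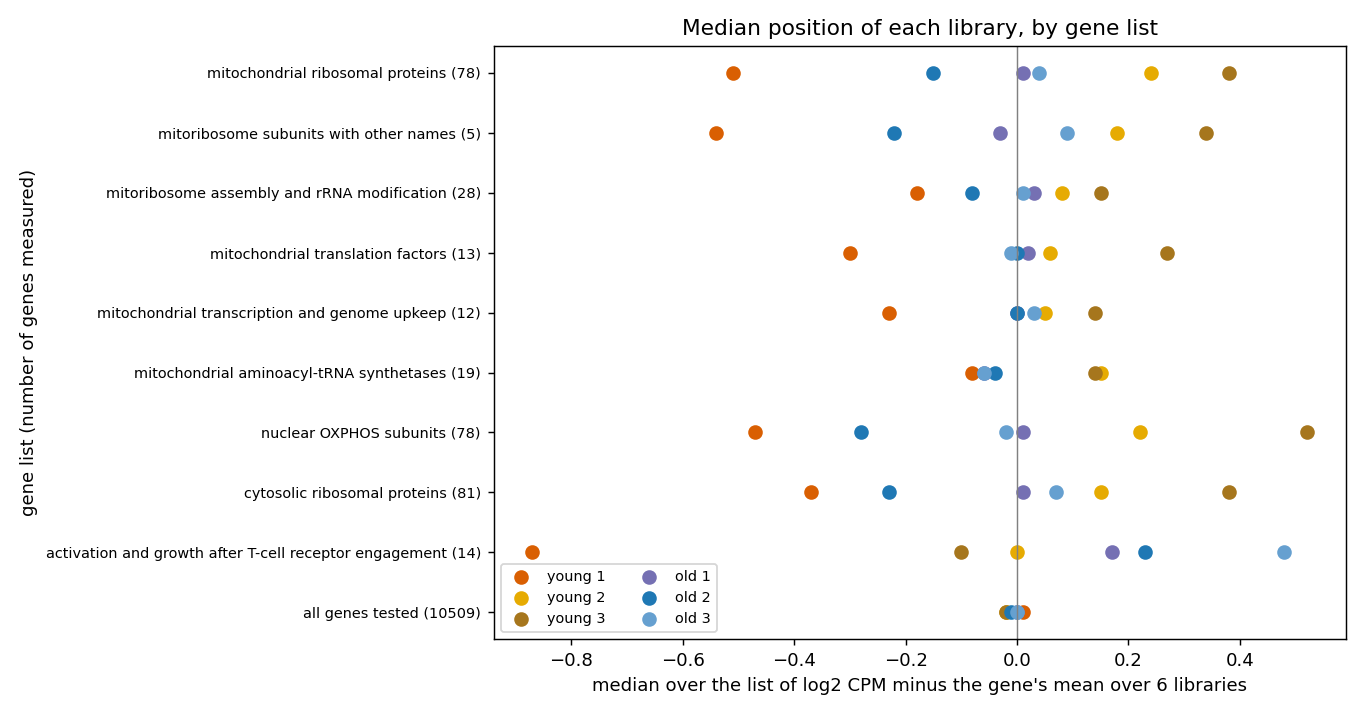
Median over each gene list of log2 CPM minus the gene's mean over 6 libraries (x), by list with its number of measured genes (y), coloured by library. Young replicate 1 is the lowest for the members (-0.51), oxidative phosphorylation (-0.47) and cytosolic ribosomal proteins (-0.37), and the old libraries lie between it and young replicates 2 and 3.

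Activation genes moved with young replicate 1 as well. Of 14 genes that respond to the T-cell receptor, 13 were lowest in young replicate 1 (32.8% of genes tested). Their median gap was -0.72, but here the old libraries were high. The summed level was 4191 to 7463 CPM in young and 7904 to 10660 CPM in old libraries, and the median difference was 0.66 with all libraries and 0.43 without young replicate 1. EdgeR called 1 of the 14 higher in old with all libraries (0.742% of genes tested) and 4 without young replicate 1 (5.86%). Myc, a transcription factor known to raise ribosome production, had 317, 791 and 621 CPM in young and 525, 640.2 and 776 CPM in old libraries, with overlapping groups. Its difference was 0.17 ± 0.34 (SE) with all libraries and -0.13 ± 0.19 without young replicate 1. The part of activation in the members' values was not tested.

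The 24 members that share a start region with a coding gene on the other strand were all below 0 without young replicate 1, with a median of -0.38 (-0.15 with all libraries, 21 below 0). For 23 of them (95.8%), young replicate 1 was below the other young libraries. The values over all 78 members were alike, with a median of -0.36, 76 below 0 and young replicate 1 below the other young libraries for 97.4%. The 22 partner genes that are not members, of which 21 were tested, had a median of -0.16 (-0.12 with all libraries). Of these, 16 were below 0 (76.2%, against 49% of genes tested). Without young replicate 1 they ran from -0.62 ± 0.17 (SE) in Ndufb5, an oxidative phosphorylation subunit beside Mrpl47, to 0.41 ± 0.15 in Gga3, beside Mrps7. With all libraries these 2 genes had -0.40 and 0.32. For 10 of the 21 (47.6%), young replicate 1 was below the other young libraries, near the 41.2% of all genes tested. Without it edgeR called 0 of the 21 (8.84% of genes tested) and DESeq2 2 (17.1%), and 4 had an unadjusted edgeR p under 0.05 (28.1%). Mrps12, whose window is printed above, had 22.5, 45.3 and 50.2 CPM in young and 34.1, 28.7 and 35.9 CPM in old libraries. Its partner Sars2 had 30.0, 36.9 and 28.4 CPM in young and 31.9, 29.5 and 34.6 CPM in old libraries. The old libraries lay below young replicates 2 and 3 in Mrps12 and overlapped them in Sars2, with differences of -0.54 ± 0.14 and -0.03 ± 0.16 (SE) without young replicate 1 and -0.26 and 0.01 with all libraries. In the pair of members, the differences without young replicate 1 were -0.38 ± 0.13 for Mrpl46 and -0.23 ± 0.16 for Mrps11, and with all libraries -0.16 and -0.02. Where the counting did not use strand, reads of overlapping partners could be shared, and the sources used here do not state a strand setting. Of the 78 members, 25 overlap another gene.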

How the data were processed

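Total RNA of 6 CD4+ T-cell libraries was sequenced on an Illumina instrument, per the labels' protocols. The authors deposited 1 table of 66712 transcripts named by RefSeq accession, which gives expected counts and FPKM for each library, per the file headers. The submitters' processing notes name Bowtie, RSEM and GRCm38 (mm10). RSEM divides reads among transcripts by a model, so counts of near-identical or overlapping genes are estimates. Read filters and the strand setting were not stated in the sources used.

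Expected counts and FPKM were summed per Entrez gene (19977 genes; 19830 matched to RefSeq symbols), and counts were rounded. The 10509 genes whose FPKM averaged 1 or more were fitted with edgeR 4.0.16 (R 4.3.3), quasi-likelihood test, TMM factors and no replicate block; calls are at a Benjamini-Hochberg adjusted p under 0.05. CPM values use TMM-scaled totals, and SE is the log2 difference over the square root of F. DESeq2 1.42.0 and limma 3.58.1 were alternatives. The fit was tested on simulated data in which no library stood apart, so that test does not cover a library such as young replicate 1. Titles gave groups and numbers; they call the young group 1M. Replicate numbers were not used as pairs. Members and lists were chosen with earlier results of these data known. Members named by rule were those called, the 5 highest and 5 lowest differences, the 5 highest and 3 lowest levels, and Mrps18a, Mrps18b, Mrps18c, Mrps30, Mrps36, Mrpl57 and Mrpl58. Mrpl10, Mrpl28, Mrpl39, Mrpl46, Mrpl51, Mrps11 and Mrps12 were named after their values were seen, as were the other genes of start regions.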

Additional observations from a re-analysis of the deposited data

How the results depend on the processing

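With all 6 libraries, 0 members were called under each alternative except without young replicate 1. Leaving out each library in turn gave 0 to 5 called members, medians over the members from -0.357 to 0.034 and log2 ratios of their summed level from -0.354 to 0.041, both above 0 only without young replicate 3. Over all genes, 92 were called, 203 with no filter, 55 at a mean FPKM of at least 5, 501 with DESeq2, 49 with limma on log2(TPM + 1), and 0 to 929 with 1 library left out. Without young replicate 1, the 5 calls became 26 with DESeq2, 3 with library totals, 2 with limma on log2(FPKM + 1), 3 with a pseudocount of 0.1, 3 after quantile scaling and 1 on TPM. A further library left out gave 0 to 18 calls and medians from -0.416 to -0.286. TPM moved the median of all genes to 0.14 and that of the members to -0.21, a difference of -0.35 (main, -0.37). These alternatives on 5 libraries were chosen after seeing the data.

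Replicate numbers are shared by the groups, but the labels do not say that equal numbers pair libraries, so they were not treated as pairs. Deviations from group means correlated at 0.223, -0.029 and 0.182 for same-numbered libraries and at -0.33 to 0.339 for the others. Such deviations sum to 0 within a group, so these correlations cannot decide whether libraries pair. With the replicate block, 0 members (119 genes) were called with all libraries, the median being -0.08, and 15 members without young replicate 1.

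Of 368 recomputed differences of 23 named members with all libraries, 329 kept their sign and their side of the threshold, 5 became calls (the 5 genes called without young replicate 1) and 34 changed sign, in 13 members. Ranges over left-out libraries were -0.51 to 0.21 for Mrpl17, -0.29 to 0.14 for Mrpl19, -0.30 to 0.11 for Mrpl23, -0.11 to 0.25 for Mrpl24, -0.50 to 0.02 for Mrpl41, -0.48 to 0.33 for Mrpl52, -0.69 to 0.01 for Mrpl55, -0.07 to 0.23 for Mrpl57, -0.27 to 0.19 for Mrps18a, -0.34 to 0.09 for Mrps18b, -0.18 to 0.29 for Mrps22, -0.13 to 0.36 for Mrps36 and -0.28 to 0.39 for Mrps6. On TPM the sign also changed for Mrpl17 (0.01), Mrpl19 (0.00), Mrpl23 (0.04), Mrpl52 (0.05), Mrps18a (0.08) and Mrps18b (0.02). Quantile scaling changed it for Mrpl23 (0.03), Mrpl52 (0.08), Mrps18a (0.05) and Mrps18b (0.01), log2(FPKM + 1) for Mrpl52 (0.01) and Mrps18a (0.04), log2(FPKM + 0.1) for Mrpl23 (0.00), Mrpl52 (0.01) and Mrps18a (0.04), and the replicate block for Mrps18a (0.03). Where these changes have a cause beyond fewer libraries, the cause was not tested.

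The lowest count of a member in any library was 200, for Mrpl47. The young group without replicate 1 has 2 libraries, and that number limits the precision.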
